A study of Caenorhabditis elegans with 2 samples.

Results

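The genes described here are small nucleolar RNA (snoRNA) genes and the protein-coding genes that hold them, in a chromatin immunoprecipitation and sequencing (ChIP-seq) experiment on the C. elegans protein ZK546.5. A snoRNA gene was counted when the pooled list of regions held a summit within 1 kb of its annotated start. Of the 346 snoRNA genes in the Ensembl annotation of WBcel235, 202 (58.4%) met this rule, out of 46926 annotated genes of all types. The share was 53.3% of all nuclear genes, 49.1% of protein-coding genes and 63.0% of piRNA genes, so meeting the rule does not set snoRNA genes apart. A host was defined as a protein-coding gene on the same strand that encloses the snoRNA gene. By this definition 102 of the 202 lay in a host and 100 did not. Of the 100, 19 lay inside a protein-coding gene on the other strand and 81 inside none.

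The study holds 1 group of 2 biological replicates, made from whole worms of strain OP231 (unc-119(ed3) III; wgIs231) at the L4 larval stage, of mixed sex. The strain carries an inserted transgene that expresses ZK546.5 with a GFP-FLAG tag at its C-terminal end, in an unc-119 mutant background. All samples share the tag and the unc-119 allele, and the labels do not say what drives the transgene. Whole animals were used, so every cell type was pooled. The libraries of the control experiment that the labels point to were not analysed here. The pooled list and the list of each replicate have 30000 regions, described by the authors as peaks and background. The optimal set by irreproducible discovery rate (IDR), which keeps regions that rank high in both replicates, held 92. The signal value of a region is the authors'. Its scale and the library depth are unknown, so values are compared within a list. With 1 group there was no contrast to test. Genes and regions are not replicates of the worms, and no p-value is given.

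In animals, snoRNAs guide chemical modification of ribosomal RNA in the nucleolus. Box C/D snoRNAs carry a C box and a D box and guide ribose methylation, and H/ACA snoRNAs end near an ACA triplet and guide the conversion of uridine to pseudouridine. Many animal snoRNAs are cut from introns of genes for ribosomal proteins and translation factors, so that the promoter of the host drives them. Others are transcribed from promoters of their own. Transfer RNA genes, which RNA polymerase III transcribes, carry an internal B box bound by the factor TFIIIC.

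The sequences of 9 snoRNA genes of the top 1000 are printed first, picked to show where the box letters searched for stand and, in C51F7.4 and T27A8.8, a B box inside an annotated snoRNA gene. They are not a typical sample, and 3 of the first 5 hold no TGATGA. All were read from the RefSeq sequence of WBcel235 on the strand of the snoRNA gene, 5′ to 3′. Capitals in the first 5 mark TGATGA (the C box consensus) anywhere and CTGA (the D box) in the last 15 bases. Capitals in F28D1.13 and F54E7.10 mark ACA in the last 10 bases, and in C51F7.4 and T27A8.8 the B box consensus. H06I04.8 lies in ubl-1 at chrIII:3068806-3068883 (+), C51F7.3 in frm-7 at chrV:12303708-12303783 (+), T03F7.8 at chrV:11314258-11314332 (+), Y53F4B.47 at chrII:15025814-15025893 (-) and F54C9.12 in iff-2 at chrII:8560691-8560772 (-). F28D1.13 lies in rps-23 at chrIV:12390526-12390655 (-), F54E7.10 in rps-12 at chrIII:5679378-5679509 (+), C51F7.4 in frm-7 at chrV:12303599-12303693 (+) and T27A8.8 at chrX:16057374-16057539 (+).
H06I04.8: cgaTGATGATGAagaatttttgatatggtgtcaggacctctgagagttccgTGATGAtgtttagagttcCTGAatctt
C51F7.3: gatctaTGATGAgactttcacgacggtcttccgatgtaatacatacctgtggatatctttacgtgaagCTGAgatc
T03F7.8: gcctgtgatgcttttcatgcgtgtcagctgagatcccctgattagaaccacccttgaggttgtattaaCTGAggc
Y53F4B.47: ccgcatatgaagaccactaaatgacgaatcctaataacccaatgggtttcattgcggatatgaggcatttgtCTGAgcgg
F54C9.12: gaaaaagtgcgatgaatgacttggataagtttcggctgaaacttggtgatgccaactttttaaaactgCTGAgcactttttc
F28D1.13: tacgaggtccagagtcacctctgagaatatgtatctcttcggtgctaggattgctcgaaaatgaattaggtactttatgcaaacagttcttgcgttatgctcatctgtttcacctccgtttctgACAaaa
F54E7.10: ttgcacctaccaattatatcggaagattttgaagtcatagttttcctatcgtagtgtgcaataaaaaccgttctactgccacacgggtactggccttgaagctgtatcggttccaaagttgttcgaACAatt
C51F7.4: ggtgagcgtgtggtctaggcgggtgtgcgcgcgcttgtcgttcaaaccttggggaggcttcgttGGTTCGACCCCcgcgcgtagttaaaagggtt
T27A8.8: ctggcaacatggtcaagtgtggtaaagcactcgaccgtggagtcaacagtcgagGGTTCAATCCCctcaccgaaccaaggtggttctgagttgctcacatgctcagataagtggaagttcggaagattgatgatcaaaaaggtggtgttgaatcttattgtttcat

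The sequences around 4 summits at hosts follow, picked because they hold the word ACCGTA, to which the text returns. They are not the 4 strongest. The summit windows of tmem-107, with the strongest region, and of rps-12, which ranked above rpl-15, hold no ACCGTA. Each window holds the summit and 75 bases to either side. It is printed on the strand of the snoRNA gene. All 4 summits lie upstream of the host start, and the end of the iff-2 window reaches into iff-2. Capitals mark CCTGCACA or ACCGTA on either strand, so that TGTGCAGG and TACGGT are the same words read from the other strand. The windows lie at chrIV:12391264-12391414 (-) for rps-23, chrIII:3068024-3068174 (+) for ubl-1, chrII:8561349-8561499 (-) for iff-2 and chrIV:654857-655007 (-) for rpl-15.
rps-23 summit: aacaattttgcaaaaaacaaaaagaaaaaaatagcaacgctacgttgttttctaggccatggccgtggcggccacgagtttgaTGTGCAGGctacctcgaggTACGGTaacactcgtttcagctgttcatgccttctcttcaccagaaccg
ubl-1 summit: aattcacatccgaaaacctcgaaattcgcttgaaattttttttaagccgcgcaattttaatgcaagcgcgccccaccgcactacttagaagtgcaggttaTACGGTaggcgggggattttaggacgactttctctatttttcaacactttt
iff-2 summit: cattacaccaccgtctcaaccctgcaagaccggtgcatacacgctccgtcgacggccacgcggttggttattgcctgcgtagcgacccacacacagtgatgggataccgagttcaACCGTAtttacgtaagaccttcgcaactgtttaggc
rpl-15 summit: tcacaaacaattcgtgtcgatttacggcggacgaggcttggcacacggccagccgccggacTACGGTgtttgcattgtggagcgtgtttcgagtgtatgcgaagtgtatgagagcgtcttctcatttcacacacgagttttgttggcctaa

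The snoRNA genes had high-ranking regions more often than genes at large, while their median was only a little higher. An IDR summit lay within 1 kb of 9 of the 202 snoRNA genes (4.46%), against 0.625% of all 24979 nuclear genes that had a pooled summit within 1 kb. The share was 0.949% of the 9798 protein-coding genes and 1.01% of the 15293 nuclear genes other than piRNA genes. The highest region ranked in the top 1000 of the pooled list at 32 snoRNA genes (15.8%), against 4.97% of all nuclear genes and 5.17% of protein-coding genes. The median of the highest signal value was 14.9 for the snoRNA genes, with quartiles of 11.8 and 19.3 and a range of 9.85 to 551. It was 13.5 for all nuclear genes and 13.4 for protein-coding genes. The 202 snoRNA genes share 191 regions, since neighbours in 1 host can have the same one.

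Other genes for short RNAs did not all follow this pattern. Genes annotated as small nuclear RNA genes, of any kind, had the higher shares, with 20 of 63 (31.7%) in the top 1000 and 5 (7.94%) with an IDR summit. Of 141 microRNA genes, 10 (7.09%) were in the top 1000 and 7 (4.96%) had an IDR summit. Of 339 transfer RNA genes, 17 (5.01%) were in the top 1000 and 1 (0.295%) had an IDR summit.

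**Figure D1:**
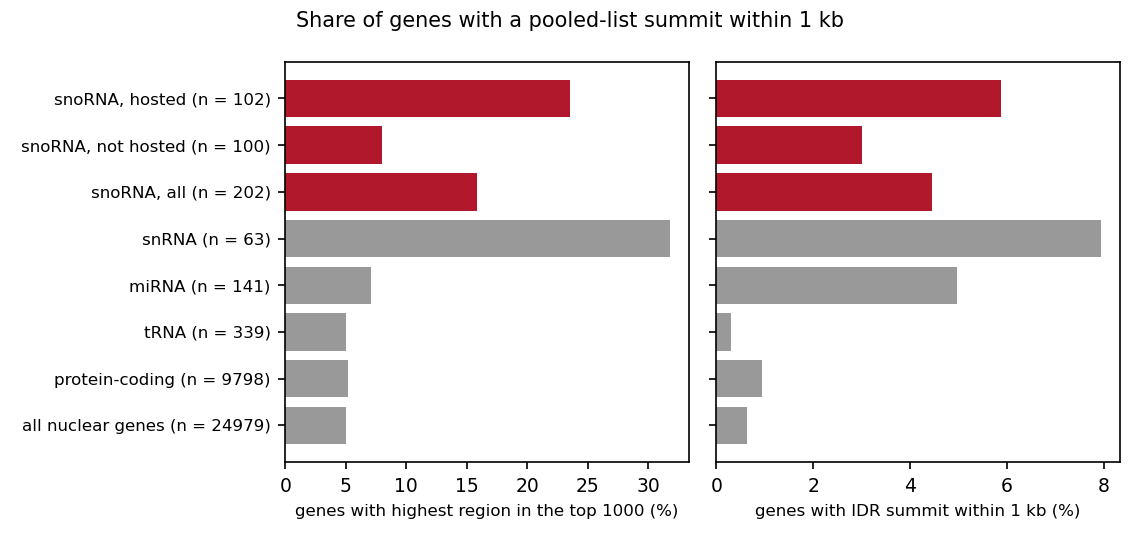
Bars give the percentage of genes with a pooled-list summit within 1 kb whose highest region ranked in the top 1000 (left) or that had an IDR summit within 1 kb (right), for snoRNA genes in red and other gene types in grey, with n beside each name. Hosted snoRNA genes reached 23.5% and 5.88%, against 5.17% and 0.949% of protein-coding genes.

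The high ranks sat mainly on the hosted side. Of the 102 hosted snoRNA genes, 24 (23.5%) had a region in the top 1000 and 6 (5.88%) an IDR summit. Of the 100 without a host, 8 (8.0%) had a region in the top 1000 and 3 (3.0%) an IDR summit. Their medians were close, at 14.8 for hosted and 14.98 for other snoRNA genes, with upper quartiles of 20.5 and 18.4. The bulk of the values overlapped, and the highest value was 551 with a host and 55.9 without. No test was made of these differences, since genes are not replicates.

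Among hosted snoRNA genes, those near the host start had the higher values. The split at 1 kb from the host start was chosen after the values were seen. Of the 36 snoRNA genes that start within 1 kb of the host start, 14 (38.9%) had a region in the top 1000, and the median was 17.6. All 6 hosted snoRNA genes with an IDR summit were here. Of the 66 that start farther in, 10 (15.2%) were in the top 1000, none had an IDR summit, and the median was 14.4 with a highest value of 31.1. The highest summit was nearer to the host start than to the snoRNA start in 25 of the 36 and in 1 of the 66. Distances of this kind are bounded by the 1 kb rule, so a deeply placed snoRNA gene could hardly have a summit at the host start.

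Over all 102, the summit was nearer to the host start in 26 and to the snoRNA start in 76. Those 26 had a median signal of 20.5. Of them, 12 snoRNA genes had a region in the top 1000 and 6 an IDR summit, with some regions shared by 2 snoRNA genes of 1 host. The 76 had a median of 14.2 and a highest value of 31.1. Of them, 12 snoRNA genes had a region in the top 1000 and none an IDR summit. All 12 hosted snoRNA genes of the top 1000 with the summit nearer to the host had it upstream of the host start.

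**Figure D2:**
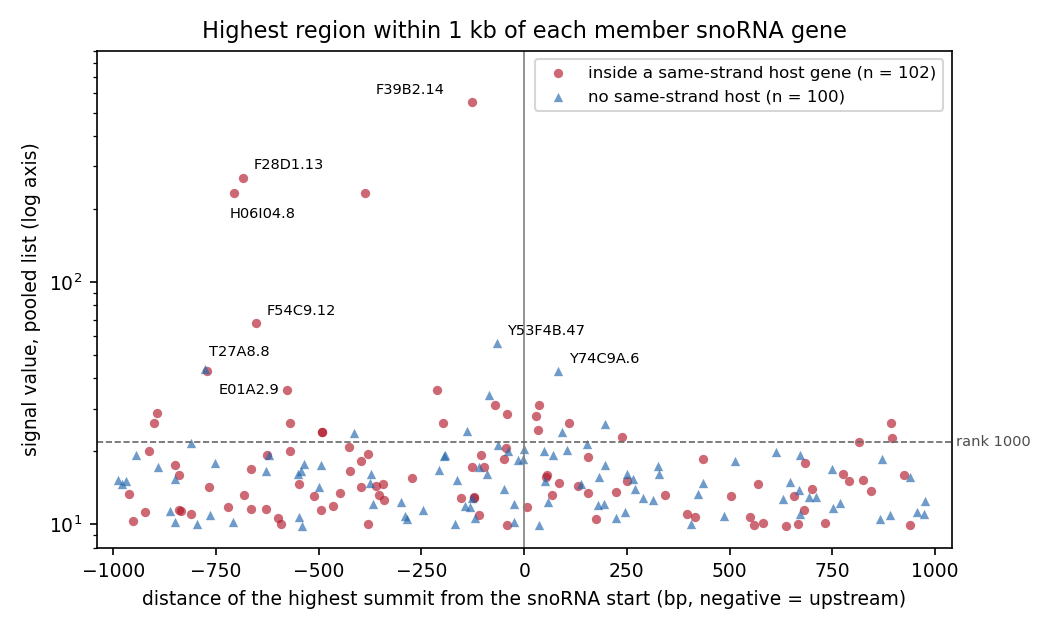
Each point is 1 of the 202 snoRNA genes, with the distance of its highest summit from the snoRNA start in bp on the x axis and its pooled signal value on a log y axis. Red circles have a host and blue triangles have none, and the dashed line marks the lowest value of a snoRNA gene in the top 1000. The highest points are hosted genes with the summit upstream, at 551, 269 and 232.

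Ribosomal protein genes held several of the snoRNA genes with high regions. F28D1.13 lies in an intron of rps-23, a small-subunit ribosomal protein gene. Its highest region had signal values of 269 in the pooled list, 167 in replicate 1 and 102 in replicate 2, where it ranked 12, 15 and 18. The summit lay 684 bp upstream of the snoRNA start and 286 bp upstream of rps-23. It was also 248 bp upstream of dpm-3, which encodes a subunit of dolichol-phosphate mannose synthase, so that the region cannot be assigned to 1 of the starts by distance.

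The pair H06I04.8 and H06I04.9 lies in introns of ubl-1, which encodes a fusion of a ubiquitin-like protein with a small-subunit ribosomal protein. They share 1 region, with signal values of 232 in the pooled list, 119 in replicate 1 and 113 in replicate 2 and ranks of 18, 21 and 13. The summit lay 211 bp upstream of ubl-1, which was the only protein-coding start within 1 kb of it, and 707 and 387 bp upstream of the snoRNA starts. Both replicates placed this region and that of rps-23 among their strongest.

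The other ribosomal hosts had lower values that the replicates shared less. F54E7.10 and F54E7.11 in rps-12, a small-subunit gene, share a region with values of 35.9 in the pooled list, 28.2 in replicate 1 and 8.77 in replicate 2. It ranked 95, 75 and 5085, and its summit lay 131 bp upstream of rps-12 and 162 bp upstream of ska-3. K11H12.12 and K11H12.13 in rpl-15, a large-subunit gene, share a region at 26.1 in the pooled list, 13.6 in replicate 1 and 10.4 in replicate 2, 356 bp upstream of the host. Its ranks were 286, 2610 and 2247. F28C6.11 in rpl-26, also of the large subunit, had 24.03 in the pooled list and 12.6 in each replicate, with ranks of 480, 3967 and 741. Its summit was 305 bp upstream of rpl-26 but 40 bp upstream of cpf-1, a gene of messenger RNA 3′ end processing. In replicate 2, rps-12 was thus far below its place in replicate 1, while rpl-15 was outside the top 1000 of both.

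Of the 3 hosts with a translation factor symbol (eef-, eif- or iff-), iff-2, which encodes eIF5A, was the only one whose snoRNA gene met the rule. Its intronic snoRNA gene F54C9.12 had a region at 67.5 in the pooled list, 40.2 in replicate 1 and 27.2 in replicate 2, ranked 48, 50 and 53. The summit lay 57 bp upstream of iff-2 and 652 bp upstream of the snoRNA start, and the 3 lists gave it nearly the same rank.

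Of all 202 snoRNA genes, the one in tmem-107, a host outside translation, had the strongest region. F39B2.14 overlaps an exon of tmem-107, whose protein acts in the transition zone of cilia, on chromosome I from 14759178 to 14759412. The region had signal values of 551 in the pooled list, 342 in replicate 1 and 203 in replicate 2, ranked 5, 4 and 6. The summit lay 128 bp upstream of the snoRNA start, 67 bp upstream of tmem-107 and 390 bp upstream of rps-26, a ribosomal protein gene that is not a host. E01A2.9 in akir-1, which encodes an akirin, had 43.1 in the pooled list, 26.04 in replicate 1 and 21.2 in replicate 2, ranked 77, 85 and 73. Its summit was 551 bp upstream of akir-1 but 8 bp upstream of E01A2.1. C06A1.9 in cdc-48.1, an AAA ATPase gene, had 24.1 in the pooled list and 25.3 in replicate 1, and no region of replicate 2 overlapped it.

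**Figure D3:**
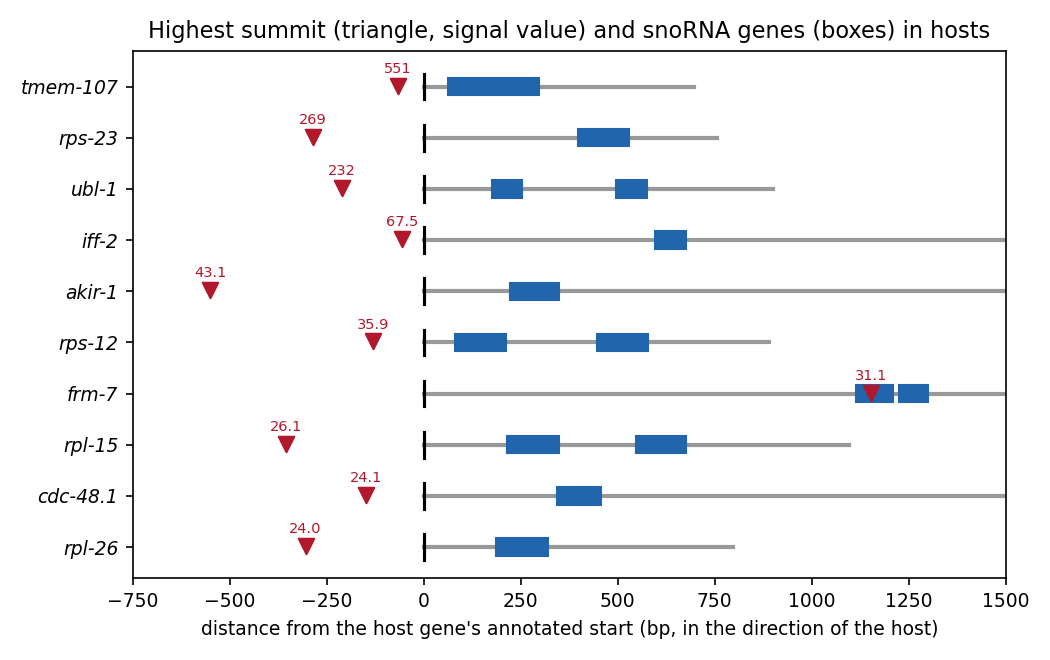
Each row is 1 host gene drawn from its annotated start (black tick) in the direction of transcription, with the snoRNA genes that have the summit as their highest as blue boxes and that summit as a red triangle with its pooled signal value. The grey line is the host gene, cut at the edge where it is longer, and the x axis is in bp. The 10 hosts were picked by hand. They leave out jac-1 and pcyt-2.1, among others, whose values are above that of rpl-15 and whose summits lie downstream of the host start. In 9 of the 10 hosts drawn the summit lies upstream of the host start, and in frm-7 it lies on a snoRNA gene. Of all 24 hosted snoRNA genes of the top 1000, 12 had the summit upstream of the host start.

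Deeper snoRNA genes with a region of their own were led by the frm-7 pair. C51F7.3 and C51F7.4 lie next to each other in frm-7, a gene of the FERM domain family, more than 1 kb from its start. They share a region with 31.1 in the pooled list and 27.05 in replicate 2, where it ranked 54, while no region of replicate 1 overlapped it. The summit lay inside C51F7.4, 37 bp after its start, and 72 bp before C51F7.3. Of 25 hosted snoRNA genes that were over 1 kb from the host start and had the summit within 250 bp of their own start, 7 were in the top 1000 (28%). The share among genes with the summit equally near their start was 6.28% of all nuclear genes and 7% of protein-coding genes. It was 22.2% of all snoRNA genes, 20% of microRNA genes and 55.2% of small nuclear RNA genes, so a high share was not particular to deep hosted snoRNA genes.

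The other 5 of those 7 had no IDR summit either. Y37E3.20 in pcyt-2.1, a gene of phospholipid synthesis, had 28.6 in the pooled list, with a rank of 4614 in replicate 1 and 1445 in replicate 2 and the summit 43 bp from its start. C08D8.3 in C08D8.1 had 27.9, with ranks of 1047 and 1928, and F01D5.12 in F01D5.10 had 26.3, with ranks of 294 and 1079. C52G5.13 in nhr-27, a nuclear hormone receptor gene, had 26.2 and no region in replicate 2. C52G5.13 also lies inside gei-3 on the same strand, and the host with the nearer start was taken. W04D2.7 in inx-11, an innexin gene, had 24.4, with ranks of 590 and 6259. None of these was in the top 1000 of both replicates.

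Of the remaining hosted snoRNA genes of the top 1000, 4 had the summit 814 to 895 bp from their own start. The snoRNA gene in jac-1, which encodes a p120 catenin, had 28.7, with a rank of 240 in replicate 1 and no overlapping region in replicate 2. Y76B12C.11 in Y76B12C.6 had 26.2, with ranks of 3479 and 1380. The Y76B12C.11 summit lay 1 bp from xpc-1, a gene of DNA repair, and 893 bp from the snoRNA start. K02F3.15 in zip-2, a bZIP factor gene, had 22.8, with ranks of 1326 and 26467. C16D9.11 in rol-3 had 21.8, with ranks of 2085 and 17416. F48A11.7 in ubxn-3 had 23.004, with the summit 238 bp from its own start and 1114 bp from the host start. Its ranks in the replicates were 1650 and 3874.

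The 8 snoRNA genes of the top 1000 without a host were led by Y53F4B.47. Its region had signal values of 55.9 in the pooled list, 41.0 in replicate 1 and 12.6 in replicate 2, ranked 59, 49 and 731. The summit lay 67 bp upstream of the snoRNA start and 154 bp upstream of cmtr-1, a messenger RNA cap methyltransferase gene. T27A8.8 on the X chromosome had 43.8 in the pooled list, 31.5 in replicate 1 and 14.3 in replicate 2, ranked 76, 65 and 334, with the summit 776 bp upstream. Y74C9A.6, near the left end of chromosome I from 3747 to 3909, had 42.9 in the pooled list, 25.9 in replicate 1 and 16.96 in replicate 2, ranked 79, 87 and 115. Its summit lay 83 bp inside the gene, and no protein-coding start was within 1 kb. These 3 had IDR summits and were in the top 1000 of both replicates.

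The other 5 ranked high in 1 replicate at most, by the replicate regions that overlap their highest pooled region. T03F7.8, which lies on the other strand inside cutl-18, had 34.1 in the pooled list and ranks of 112 in replicate 1 and 21855 in replicate 2. K07C10.2 had 25.9 and ranks of 1053 and 97, and T26A8.6 had 24.1 and ranks of 22093 and 112. Replicate 1 held another region within 1 kb of the T26A8.6 start, which ranked 385. Y39G10AR.24 had 24.3, ranked 316 in replicate 1 and had no region in replicate 2. A snoRNA gene inside pkd-2, on its other strand, had 23.8 and ranks of 1778 and 16687. Just below the top 1000 came T26H10.10 with 21.6, T19B4.8 with 21.5, W03C9.9 with 21.2 and Y55F3BR.9 with 20.5.

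A protein-coding start lay within 1 kb of the highest summit for 84 of the 202 snoRNA genes (41.6%), against 36.0% of the 29979 nuclear regions. Among hosted snoRNA genes with such a start, 13 of 41 (31.7%) were in the top 1000, and 11 of 61 (18.0%) without one. Among snoRNA genes without a host the counts were 2 of 43 (4.65%) with such a start and 6 of 57 (10.5%) without one. Of all nuclear regions, 3.82% of those with such a start and 2.96% of the rest were in the top 1000. These last shares count each region once, while the shares of snoRNA genes take the highest region per gene. Counted per gene, the share was 4.97% of all nuclear genes and 5.17% of protein-coding genes.

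More summits lay within 250 bp of the snoRNA starts than of starts at large, but by the median distance only snoRNA genes without a host were closer. The highest summit was within 250 bp of the start in 72 of 202 snoRNA genes (35.6%), against 26.5% of protein-coding genes and 26.7% of all nuclear genes. It was 46.0% for small nuclear RNA genes and 31.9% for transfer RNA genes. Without a host the count was 41 of 100 (41.0%), and with a host 31 of 102 (30.4%). The median distance was 425 bp for snoRNA genes and 469 bp for protein-coding genes, and the summit was upstream in 56.4% and 55.5%. It was 348 bp without a host and 492.5 bp with a host, against 478 bp for all nuclear genes.

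The replicates shared the regions of snoRNA genes more often than those of other genes. The highest region was overlapped by a region of both replicates for 83 of 202 snoRNA genes (41.1%), against 27.3% of protein-coding and 27.5% of all nuclear genes. Within the pooled top 1000 the shares were close, at 81.25% of the 32 snoRNA genes and 78.5% of the 979 nuclear regions. Of the 202 snoRNA genes, the highest region was overlapped in replicate 1 alone for 63 and in neither for 11. In the replicate lists the overlapping region had a median rank of 5509 over 146 snoRNA genes in replicate 1 and 8009 over 128 in replicate 2. Of the 32 in the top 1000 of the pooled list, 9 (28.1%) were in the top 1000 of both replicates, 14 of 1 and 9 of neither. Among the 979 nuclear regions of the pooled top 1000, 91 (9.30%) were in that of both. The 9 are the snoRNA genes with an IDR summit, and IDR was computed from these lists, so their high ranks in both follow from the choice. Without them, 193 snoRNA genes had a median of 14.7, and 23 (11.9%) were in the top 1000.

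**Figure D4:**
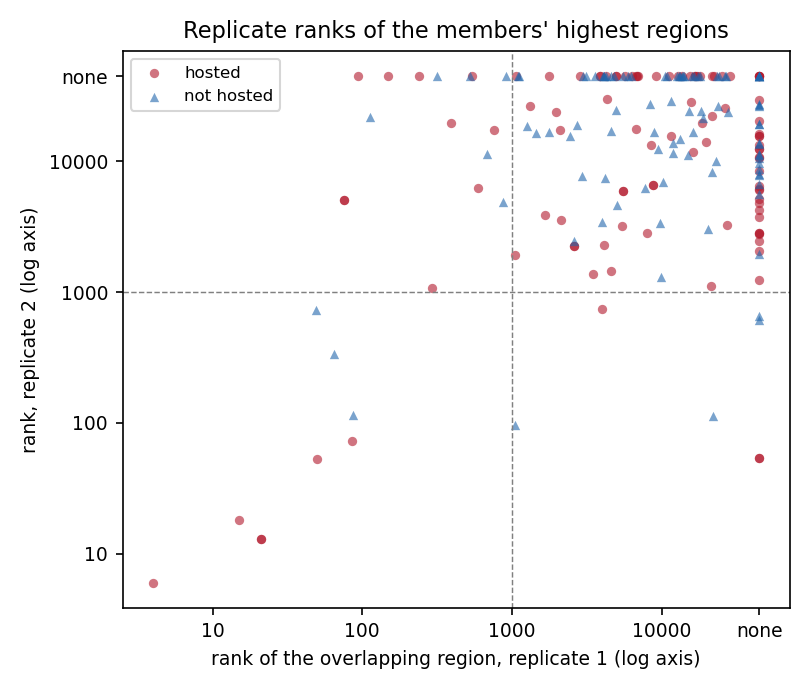
Each point is 1 snoRNA gene, with the rank of the replicate 1 region that overlaps its highest pooled region on the x axis and that of replicate 2 on the y axis, both logarithmic; "none" marks no overlapping region and dashed lines mark rank 1000. The 9 points at the lower left are the genes with an IDR summit, and they are also in the pooled top 100.

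The hosts were also counted by their own starts, whether or not their snoRNA genes met the rule. The 183 snoRNA genes with a host lie in 159 host genes, of which 136 hold 1 and 23 hold 2 or more. A pooled summit lay within 1 kb of the start of 83 hosts (52.2%), against 49.0% of the 19814 protein-coding genes that hold none. Of these, 16 hosts (19.3%) were in the top 1000, against 5.05% of the 9715 other genes, and 6 (7.23%) had an IDR summit, against 0.896%. The median signal was 14.8 for hosts and 13.3 for the others.

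Ribosomal hosts were set beside the other ribosomal protein genes, a comparison added after the values were seen. Classes were set by gene symbol alone. Symbols in rpl-, rps- or rla- and ubl-1 counted as ribosomal. Those in eef-, eif-, iff-, ife-, ifg-, inf- or eftu- counted as translation factors. Genes such as mrps-2 and fars-1 thus fell among the other hosts. Of 14 ribosomal hosts, 9 had a pooled summit at the start, with a median of 24.03, 5 (55.6%) in the top 1000 and 2 (22.2%) with an IDR summit. Of 68 ribosomal protein genes that hold no snoRNA gene, 51 had a pooled summit, with a median of 15.5, 19 (37.3%) in the top 1000 and 12 (23.5%) with an IDR summit. Of 142 hosts with neither kind of symbol, 72 had a summit, 10 (13.9%) in the top 1000 and 3 (4.17%) with an IDR summit.

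A strong region at a host did not always count for its snoRNA gene. wwp-1, which encodes a ubiquitin ligase, had the strongest region of the whole list at its start, at 1072. Its snoRNA gene Y65B4BR.12 lies beyond reach of it and had a highest region of 19.0, ranked 2274, with the summit 155 bp from its own start. hsp-1, an HSP70 chaperone gene, had 35.7 at its start, and gsp-2, a protein phosphatase gene, 26.7.

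Of 11 genes for proteins of snoRNA particles, 7 had a pooled summit within 1 kb. None of the 7 was in the top 1000 and none had an IDR summit, where the shares of protein-coding genes were 5.17% and 0.949%, so that with 7 genes these counts are near the background. nol-56, which encodes the box C/D protein NOP56 and itself holds 4 snoRNA genes, had 18.2 at rank 3017, with the summit 255 bp upstream. snu-13, whose protein binds the box C/D fold, had 18.1 at rank 3104. nol-58, garr-1, Y48A6B.3, nola-3 and ruvb-2 had 10.3 to 14.3. fib-1 (fibrillarin), dkc-1 (dyskerin), dao-5 and ruvb-1 had no summit within 1 kb. No region that near was listed, which says nothing of binding below the list.

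The sequence of the snoRNA genes was compared with all 346. The median length was 126.5 bp for the 202 and 130 bp for all, over a range of 54 to 344 bp. CTGA stood in the last 15 bases of 52 of the 202 (25.7%), against 77 of all 346 (22.3%), and of 15 of the 32 (46.9%) in the top 1000. ACA stood in the last 10 bases of 55 (27.2%), against 102 of all (29.5%), and of 10 of the 32 (31.3%). TGATGA was found in 34 (16.8%), against 51 of all (14.7%). F39B2.14, with the strongest region, held none of the 3. Letters this short occur by base composition, so a match does not assign a class.

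The 3 words searched within 75 bp of the summits, on both strands, were known from earlier results on the IDR set. CCTGCACA occurred at 4 of the 191 regions (2.09%), against 60 of 30000 (0.2%). They belong to F39B2.14 in tmem-107, F28D1.13 in rps-23, F16A11.12 in ppfr-1 and M7.15. ACCGTA occurred at 12 regions (6.28%), against 1192 (3.97%), and ATCTAA at 13 (6.81%), against 2647 (8.82%). Without the regions of the IDR set, ACCGTA stood at 8 of 183 (4.37%), against 3.89% of the 29906 nuclear regions outside that set, and CCTGCACA at 2 (1.09%), against 0.15%. For ACCGTA the share is thus near the background outside the set in which the word was found. ACCGTA stood at the summits of rps-23, ubl-1, iff-2, akir-1, rpl-15 and rps-29, as the printed windows show for 4 of them. The rest of the 12 regions belong to snoRNA genes in sea-2, madf-11, Y47G6A.19 and rpl-6 and to M7.15 and W03B1.17. Of the 21 regions nearer to a host start, 6 (28.6%) held ACCGTA, while it was in 30 of the 73 nuclear IDR regions (41.1%). Those of rps-23, ubl-1, iff-2 and akir-1 are themselves IDR regions. The share of 28.6% thus rests mostly on the set in which the word was found. The windows of Y53F4B.47 and of rps-12 held none of the 3 words.

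A B box was searched within 150 bp of the summits on both strands, a choice made after the values were seen. It stood at 10 of the 191 regions (5.24%), against 272 of 30000 (0.907%) and 0 of the 73 nuclear IDR regions. The regions belong to 11 snoRNA genes, with C51F7.3 and C51F7.4 sharing 1. The highest were that of the frm-7 pair at 31.1, Y39G10AR.24 at 24.3 and W03C9.9 at 21.2. The other 7 ranged from 12.12 at C53B7.8 to 17.4 at M163.14. C51F7.4, T27A8.8 and Y77E11A.21 hold a B box inside the annotated gene, which makes 3 of 346. None of the 11 was in the top 1000 of both replicates.

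At the edge of the rule, the 4 snoRNA genes just inside 1 kb were T06E4.20, K11D9.10, C34E11.20 and C01B10.48, with the nearest summit at 969 to 978 bp and signal values of 11.0 to 15.2. The 4 just outside were C41C4.17 in ulp-4, ZK632.18 in cnx-1, F18C5.15 in utp-20 and W07G1.23, at 1008 to 1031 bp. Their values ran from 10.3 to 24.5, and that of C41C4.17 ranked 422.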

How the data were processed

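ZK546.5 ChIP-seq regions of 2 replicates were analysed. The authors deposited narrowPeak lists on ce11, each region with a signal value; the signal is the authors' own. Its scale, the aligner, the peak caller with its version and the cut-off of IDR were not given in the sources used here. Per the deposited README text, the lists were the input for IDR. The lists on ce10 were not used. No read counts are in the lists, so depth is unknown and no error from counting was computed.

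Genes came from Ensembl release 115 of WBcel235, the assembly of ce11. Regions on 7 of 7 chromosomes ended inside the RefSeq sequence, which gave the printed bases. Coordinates count from 1. The highest signal within 1 kb of each start was taken, and ranks run over 30000 regions, mitochondrial ones included. Regions of a replicate were matched to a pooled region by overlap. Named are snoRNA genes with an IDR summit or a region in the top 1000, the 12 highest with and without a host, the 4 nearest each side of 1 kb, and genes of snoRNA particles. wwp-1, hsp-1, gsp-2 and the genes named for a sequence word or B box were named after their values were seen. The genes, lists and words were chosen with earlier results of these data known.

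Python 3.11.15, pandas 2.3.3, NumPy 2.4.6 and matplotlib 3.10.9 were used, and the search for the highest summit was tested on simulated data. Alternatives were other distances, host definitions, ranks and IDR subsets, and each replicate left out.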

Additional observations from a re-analysis of the deposited data

How the results depend on the processing

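Of 26 alternative values, 19 stayed within 1.5 times the reported count or within 1 SD of the replicate medians (2.61), and 7 did not. That SD comes from 2 lists whose signal scales differ. It is wider than the difference between the medians of snoRNA genes (14.9) and all nuclear genes (13.5), so staying within it says little about the medians. With the distance set to 500 bp, snoRNA genes with an IDR summit numbered 4 instead of 9, those in the top 1000 numbered 20 instead of 32, and hosted ones with the summit nearer to the host start 10 instead of 26; a shorter distance holds fewer summits by construction. With only the IDR regions at or above the median signal of that set, 4 snoRNA genes had an IDR summit. Leaving out 1 replicate means using the list of the other, so signal scales differ: the median signal was 7.16 without replicate 1 and 10.8 without replicate 2, against 14.9 pooled. The count in the top 1000 was 16 without replicate 1 and 27 without replicate 2. The count with an IDR summit that also lay in the top 300 of the replicate kept ran from 7 to 9, and that with the summit nearer to the host start from 26 to 27. At 2 kb, 11 had an IDR summit, 45 were in the top 1000 and 39 had the summit nearer to the host start. No paired analysis was possible because there is only 1 group. With depth unknown and no control library analysed, a gene with no listed region cannot be told apart from one whose signal was below the list.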

Other observations

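By chromosome, the 202 snoRNA genes numbered 47 on I, 35 on II, 31 on III, 36 on IV, 38 on V and 15 on X. Regions of the top 1000 were found at 5 on I, 7 on II, 5 on III, 7 on IV, 6 on V and 2 on X. IDR summits were found at 3 on I, 2 on II, 2 on III, 1 on IV, 0 on V and 1 on X.

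The snoRNA genes inside an intron of the host numbered 82, with a median signal of 15.4 and 21 (25.6%) in the top 1000. The 20 that overlap an exon of the host had a median of 13.8 and 3 (15%) in the top 1000, among them F39B2.14 with the strongest region.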
